A study of Homo sapiens with 24 samples.

Results

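The 43 genes described here act in mitosis: kinases, the spindle checkpoint, the machinery that separates sister chromatids, condensin, cohesion factors, spindle proteins, cytokinesis proteins and a set of chromatin proteins and regulators that are made together with them. They were chosen by name from a list with earlier results of these data known, though the measured values did not enter the rule. All 43 had exactly 1 row among the 25575 rows (25161 gene symbols) of a whole-transcriptome microarray table. The table covered 24 arrays. SU-DHL-4, a diffuse large B-cell lymphoma (DLBCL) line, and DG-75, a Burkitt's lymphoma line, were each kept for 72 h with DMSO as the vehicle control, with 1 µM Entospletinib (Ento), with 0.01 µM AZD5153 (AZD) or with both agents at these doses (Ento+AZD), with 3 biological replicates numbered 1 to 3 in each of the 8 groups. Ento inhibits SYK, a tyrosine kinase that relays signals from the B-cell receptor, and AZD blocks, through 2 linked binding groups, the BET family of chromatin readers, which recognise acetylated histones and promote transcription. Each lymphoma was represented by 1 established line grown in culture, so the replicates measure repeats of that line and not different tumours. The study ran the arrays in these lines as a check on its RNA sequencing, which is not analysed here.

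Mitosis begins when cyclin-dependent kinase 1 is switched on, after which Aurora and Polo-like kinases build the spindle and condensin folds the chromosomes. The spindle checkpoint holds cells in metaphase by restraining CDC20, the activator of the anaphase-promoting complex (APC/C), until every kinetochore is attached. The APC/C then marks securin for destruction, separase cuts cohesin, and the cell divides at a cleavage furrow. Transcripts of most of these genes are low in G1 and peak in G2 and mitosis, so their level in a culture also depends on how many of its cells are in these phases. The arrays measured RNA of whole cultures, and fewer cells in these phases cannot be told apart from less RNA per cell.

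The arrays were alike in their overall level, with array medians from 4.89 to 5.14 on the log2 scale and correlations of 0.981 to 0.992 between replicates of a group. The B-cell marker CD79A was read at 11.90 to 12.43 in SU-DHL-4 and 11.21 to 11.86 in DG-75, and the T-cell marker CD2 at 1.42 to 2.07 and 1.24 to 1.80. MS4A1, the gene of CD20, read 6.22 to 7.995 in DG-75 and 11.27 to 11.83 in SU-DHL-4. Some arrays stood apart in the mitotic genes. In SU-DHL-4, all 43 genes were below their group mean in replicate 2 of Ento and of Ento+AZD, by 0.86 and 0.90 log2 units on average, while the median over all rows was below by 0.08 and 0.03. In replicate 2 of AZD and DMSO the mean deviation of the 43 genes was -0.36 and -0.19. The 43 genes were also all below the group mean in the AZD array of replicate 1 of DG-75, by 0.35 on average, and 42 of them in its Ento+AZD array, where the mean deviation of the 43 was -0.24. In all 4 arrays of replicate 3 of SU-DHL-4 none of the 43 genes was below its group mean, as in replicate 1 of its Ento and Ento+AZD. The mean deviations in replicate 3 were 0.29 in DMSO, 0.51 in Ento, 0.29 in AZD and 0.55 in Ento+AZD. What set these cultures apart was not tested, and the main counts within a line are also given without all 4 arrays of a replicate number where that moved them by over 1.5 times.

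**Figure D1:**
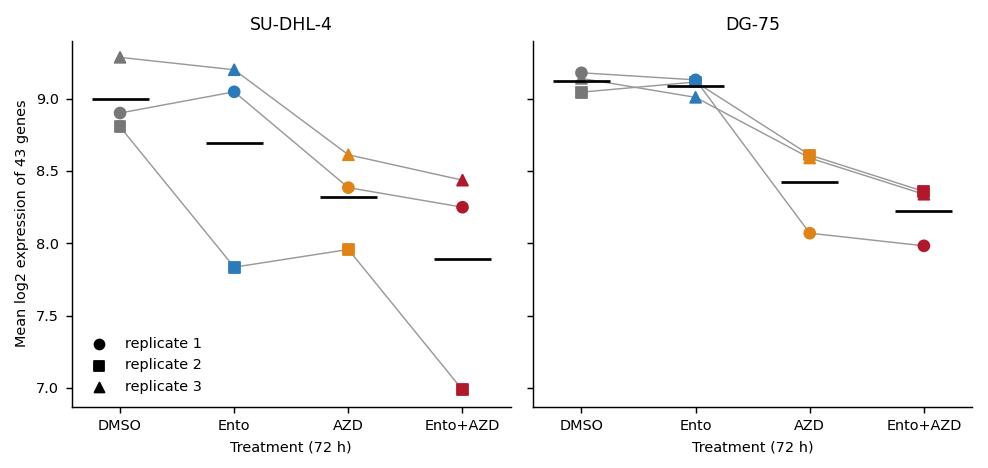
Mean log2 expression of the 43 mitotic genes (vertical axis) in each of the 24 arrays, by treatment (horizontal axis) and line (panels). Symbols are replicates 1 to 3, grey lines join arrays of the same replicate number, and black bars are group means. In DG-75 the 3 arrays of AZD (8.07 to 8.61) and the 3 of Ento+AZD (7.98 to 8.36) lie below all DMSO arrays (9.05 to 9.18), and in SU-DHL-4 the Ento+AZD array of replicate 2 is the lowest, at 6.99.

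Under the combination, every one of the 43 genes was lower than in DMSO. With both lines in 1 fit, all 43 fell at an adjusted p under 0.05, as did 7.03% of all rows, and their median log2 change was -1.04, against -0.07 over all rows. Of them, 23 fell more than 2-fold as well, the rule by which a gene is called here, while 0.813% of all rows were called lower. PRC1, which bundles the microtubules of the central spindle, had the largest change (-1.47 ± 0.17, the second number being the standard error, SE, of the fit; adjusted p = 3.23e-05). It was followed by CDKN3, a phosphatase of cyclin-dependent kinases (-1.36 ± 0.18, adjusted p = 8.49e-05), NCAPG2, a condensin II subunit (-1.33 ± 0.18, adjusted p = 7.49e-05), and DLGAP5, which stabilizes kinetochore fibres (-1.31 ± 0.17, adjusted p = 6.22e-05). The smallest changes were those of NCAPD3 (-0.33 ± 0.10, adjusted p = 0.0430) and SMC4 (-0.35 ± 0.09, adjusted p = 0.0129), both condensin subunits, and of BUB3, a checkpoint protein (-0.51 ± 0.10, adjusted p = 0.00150). In SU-DHL-4, leaving out the DMSO array of replicate 2 gave 14 calls in place of 23, leaving out its Ento+AZD array gave 15, and leaving out all 4 arrays of that number gave 8. The count over both lines became 15 when each array's median was subtracted and 14 after quantile normalization. AURKA, PLK4, UBE2C, CDCA5, NCAPG2, ASPM, DLGAP5, PRC1, RACGAP1, FOXM1 and CDKN3 were called in all 24 fits that left out 1 array.

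AZD alone lowered most of the 43 genes by less than 2-fold. Over both lines, 39 of the 43 genes fell at an adjusted p under 0.05, with a median change of -0.70 over the 43, while 4.29% of all rows fell by this rule. With 1 array left out the 39 became 22 to 42, and 22 was the count without the AZD array of replicate 1 in DG-75. Only PRC1 (-1.01 ± 0.17, adjusted p = 0.00257) and CDKN3 (-1.04 ± 0.18, adjusted p = 0.00340) fell more than 2-fold, where 0.25% of all rows were called lower. Leaving out 1 array changed this count of 2. It was 0 when the dropped array was the DMSO or the AZD array of replicate 1 in DG-75 or the DMSO array of replicate 2 in SU-DHL-4, 1 when it was the AZD array of replicate 1 or 3 in SU-DHL-4, and 5 when it was that of replicate 2. The 4 genes that did not pass were ESCO2 (-0.39 ± 0.24), NCAPH2 (-0.28 ± 0.16), NCAPD3 (-0.27 ± 0.10) and NCAPG (-0.52 ± 0.16). Under Ento alone none of the 43 genes was called over both lines, where 0% of all rows were called lower, and limma gave 2 genes at an unadjusted p under 0.05, as for 4.39% of all rows, and a median of -0.16.

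In SU-DHL-4 the combination lowered 28 of the 43 genes at an adjusted p under 0.05 and called 22, all lower, where 2.06% and 1.09% of all rows did so. The median change was -1.14. In 40 genes all 3 Ento+AZD arrays were below all 3 DMSO arrays, which held for 16% of all rows, and the exceptions were BUB1, ESCO2 and ECT2. The change was largest in replicate 2. The median difference between Ento+AZD and DMSO arrays of the same number was -0.63 in replicate 1, -1.82 in replicate 2 and -0.83 in replicate 3, and all 43 genes were lower in each of the 3. Without the 4 arrays of replicate 2 the median change was -0.78, 1 gene fell at an adjusted p under 0.05 and 1 was called. By each of these rules 0.199% of all rows fell. Without those of replicate 3 the median was -1.31 and no gene had an adjusted p under 0.05. In that fit 40 genes had an unadjusted p under 0.05 in limma (5.76% of all rows). Without those of replicate 1 the median was -1.30 with 14 called (0.981% of all rows). When 1 array was dropped, the count of 22 went to 2 for the DMSO array and 3 for the Ento+AZD array of replicate 2, and to 13 and 14 for those of replicate 3. It was 0 when the replicate number was left out of the model.

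In DG-75 the combination lowered 31 of the 43 genes at an adjusted p under 0.05 and called 11, all lower, where 1.87% and 0.708% of all rows did so. The median change was -0.93. All 3 Ento+AZD arrays lay below all 3 DMSO arrays in 41 genes (14% of all rows), the exceptions being ESCO2 and ECT2. Same-numbered differences had medians of -1.17, -0.66 and -0.83 in replicates 1, 2 and 3, again with all 43 genes lower in each. When 1 array was dropped, the count of 11 went to 0 for either the DMSO or the Ento+AZD array of replicate 1, to 5 and 6 for those of replicate 2, and to 2 for the DMSO array of replicate 3. It was 0 without all 4 arrays of any 1 replicate number. Without those of replicate 1 the median change was -0.76. Without any 1 of the 3 numbers no gene had an adjusted p under 0.05. Each time 40 genes had an unadjusted p under 0.05 in limma. Without replicates 1, 2 and 3 in turn, 6.31%, 10.3% and 9.89% of all rows fell by that rule. The count of 11 became 4 with array medians subtracted and 5 after quantile normalization. Array medians under Ento+AZD were 0.09 log2 units below those under DMSO in DG-75 and 0.13 below in SU-DHL-4, and with them subtracted the median change of the 43 genes was -0.84 and -1.01.

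**Figure D2:**
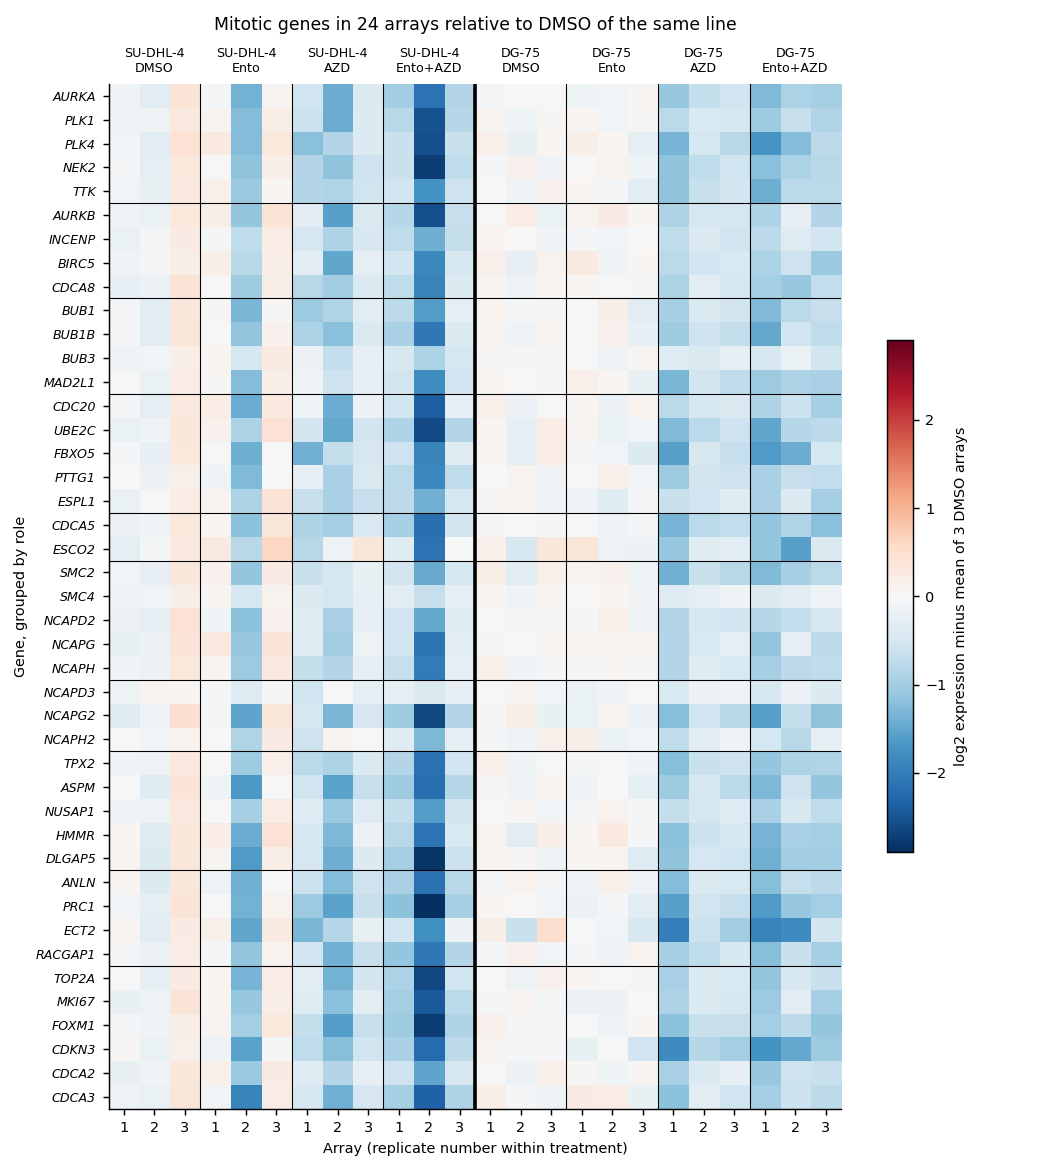
Log2 expression of each of the 43 genes (rows, grouped by role with black lines between roles) in each of the 24 arrays (columns, 3 replicates per treatment), as the difference from the mean of the 3 DMSO arrays of the same line. Blue is lower and red higher. All 43 genes are blue under Ento+AZD in replicate 2 of SU-DHL-4, and the Ento columns of DG-75 stay close to white.

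Genes of G2 and mitosis often carry promoter elements that hold them silent in G1 and release them later, so the sequences of the genes called most often are shown. RefSeq promoters of the GRCh38.p14 build, 250 bases before to 50 bases after the annotated start, were matched by symbol for 32 of the 43 genes. PRC1 and CDKN3 were called in 5 comparisons each, and NCAPG2, DLGAP5 and CDCA5 in 4 each, as was HMMR, whose change over both lines was smaller. Capitals mark the letters of the searched motifs on either strand: TTTGAA or TTCGAA for the cell-cycle genes homology region (CHR), at which the MuvB complex binds, CCAAT for the CCAAT box, TTTCCCGC, TTTCGCGC, TTTGCCGC or TTTGGCGC for the E2F site, and CACGTG for the E box bound by MYC. The windows lie at chr15:90994486-90994785 (PRC1, minus strand), chr14:54396757-54397056 (CDKN3, plus strand), chr7:158704755-158705054 (NCAPG2, minus strand), chr14:55191536-55191835 (DLGAP5, minus strand) and chr11:65083991-65084290 (CDCA5, minus strand), and each is written 5′ to 3′ on the strand of its gene.
PRC1: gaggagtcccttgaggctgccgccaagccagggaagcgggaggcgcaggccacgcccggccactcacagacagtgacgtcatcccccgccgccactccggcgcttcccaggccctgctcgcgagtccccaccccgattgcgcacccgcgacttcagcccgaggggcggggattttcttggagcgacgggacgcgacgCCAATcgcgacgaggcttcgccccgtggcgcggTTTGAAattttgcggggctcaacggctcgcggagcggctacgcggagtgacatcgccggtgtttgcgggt
CDKN3: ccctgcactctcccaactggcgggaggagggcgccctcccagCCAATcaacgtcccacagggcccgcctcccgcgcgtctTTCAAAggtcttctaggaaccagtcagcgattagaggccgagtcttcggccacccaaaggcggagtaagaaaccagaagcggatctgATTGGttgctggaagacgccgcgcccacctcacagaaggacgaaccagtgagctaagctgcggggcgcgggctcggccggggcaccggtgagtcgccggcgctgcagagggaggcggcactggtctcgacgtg
NCAPG2: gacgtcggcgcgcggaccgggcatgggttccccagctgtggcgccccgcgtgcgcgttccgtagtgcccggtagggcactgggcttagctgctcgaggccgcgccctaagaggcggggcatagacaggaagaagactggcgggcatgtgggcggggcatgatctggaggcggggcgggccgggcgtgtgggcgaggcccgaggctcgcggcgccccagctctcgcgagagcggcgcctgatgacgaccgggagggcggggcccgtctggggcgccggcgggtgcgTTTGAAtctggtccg
DLGAP5: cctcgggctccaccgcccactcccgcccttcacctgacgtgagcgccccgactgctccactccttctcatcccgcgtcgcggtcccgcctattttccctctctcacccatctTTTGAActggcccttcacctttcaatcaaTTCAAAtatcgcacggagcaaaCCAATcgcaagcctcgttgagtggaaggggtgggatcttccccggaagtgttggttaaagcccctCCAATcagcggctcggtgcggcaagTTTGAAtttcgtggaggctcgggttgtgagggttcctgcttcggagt
CDCA5: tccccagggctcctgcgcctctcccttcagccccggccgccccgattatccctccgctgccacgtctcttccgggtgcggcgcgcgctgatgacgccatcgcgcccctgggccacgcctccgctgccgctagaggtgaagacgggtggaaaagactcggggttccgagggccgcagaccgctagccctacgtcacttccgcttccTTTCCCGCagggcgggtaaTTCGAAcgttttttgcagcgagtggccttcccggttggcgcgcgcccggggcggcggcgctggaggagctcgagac

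All 5 windows held a CHR match. In PRC1 it lay at bases -20 to -15, with a CCAAT box at -53 to -49, and in CDCA5 at -26 to -21, with an E2F site at -45 to -38. CDKN3 had it farther upstream (-170 to -165) with CCAAT boxes on both strands, NCAPG2 downstream of the start (bases 36 to 41), and DLGAP5 3 times, the last at bases 4 to 9. Among the 32 matched genes 26 (81.2%) held a CHR match, against 16.6% of the 27305 promoters of this length, and 22 (68.8%) held a CCAAT box, against 35.7%. E2F sites (2 genes, 6.25%, against 3.33%) and E boxes (2 genes, 6.25%, against 7.43%) were at shares near those of all promoters. The CHR matches clustered just before the start. The windows from -50 to -25 and from -25 to 0 held one in 21.9% and 25% of the 32 genes, against 1.57% and 1.22% of all promoters. Under the combination the median change over both lines was -1.08 in the 26 genes with a CHR match and -0.98 in the 6 without, and this difference was not tested. These are matches of letters in a window, not measured binding sites. In 2 genes, CDCA8 and MKI67, matches of different motifs overlapped.

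**Figure D3:**
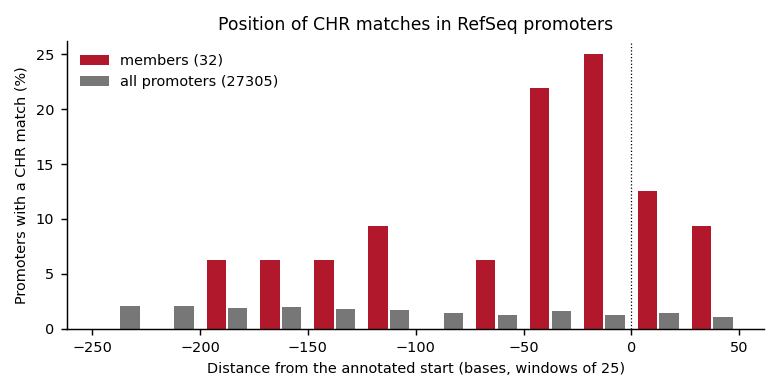
Share of promoters (vertical axis, percent) with a CHR match starting in each 25-base window along the promoter (horizontal axis, distance from the annotated start), for the 32 mitotic genes with a sequence (red) and for all 27305 promoters (grey). The red bars reach 21.9% and 25% in the 2 windows before the start, where the grey bars are 1.57% and 1.22%.

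All 5 kinases fell over both lines (median -1.18), and 4 were called. AURKA, which matures centrosomes and drives spindle bipolarity, was one of 2 genes of the set that fell at an adjusted p under 0.05 under AZD alone in DG-75. In SU-DHL-4, listed in the order of replicates 1 to 3 here and in what follows, AURKA read 9.62, 9.41 and 10.11 in DMSO, 9.69, 8.34 and 9.80 in Ento, 9.14, 8.28 and 9.30 in AZD and 8.71, 7.58 and 8.87 in Ento+AZD. In DG-75 it read 10.05, 10.09 and 10.08 in DMSO, 9.94, 9.998 and 10.13 in Ento, 8.96, 9.37 and 9.53 in AZD and 8.80, 9.16 and 9.12 in Ento+AZD. In both lines every AZD and every Ento+AZD array was below every DMSO array, and the DMSO arrays of DG-75 lay within 0.04 of each other. The change under Ento+AZD was -1.33 ± 0.19 (adjusted p = 0.00597) in SU-DHL-4 and -1.05 ± 0.14 (adjusted p = 0.0162) in DG-75, and under AZD in DG-75 -0.79 ± 0.14 (adjusted p = 0.0495). PLK1, the kinase of mitotic entry and spindle assembly, read 10.81, 10.79 and 11.21 in DMSO, 11.03, 9.67 and 11.13 in Ento, 10.32, 9.49 and 10.53 in AZD and 10.13, 8.41 and 10.12 in Ento+AZD in SU-DHL-4. Its DG-75 arrays gave 11.24, 11.03 and 11.19 in DMSO, 11.22, 11.07 and 11.18 in Ento, 10.38, 10.71 and 10.66 in AZD and 10.12, 10.48 and 10.29 in Ento+AZD. The Ento+AZD arrays lay below the DMSO arrays in both lines, and the change passed the 2-fold rule in SU-DHL-4 (-1.39 ± 0.25, adjusted p = 0.0152) but not in DG-75 (-0.86 ± 0.15, adjusted p = 0.0214).

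PLK4, the kinase that licenses the copying of centrioles, was called in DG-75 and over both lines. In DG-75 it read 8.68, 8.32 and 8.59 in DMSO, 8.70, 8.59 and 8.25 in Ento, 7.17, 8.02 and 7.72 in AZD and 6.81, 7.27 and 7.77 in Ento+AZD. SU-DHL-4 gave 7.64, 7.39 and 8.15 in DMSO, 8.001, 6.46 and 8.03 in Ento, 6.52, 6.87 and 7.33 in AZD and 7.08, 5.17 and 7.08 in Ento+AZD. In SU-DHL-4 the Ento+AZD array of replicate 2 lay far below those of replicates 1 and 3, and the change there, -1.28 ± 0.33, had an adjusted p of 0.0693, against -1.25 ± 0.26 with 0.0344 in DG-75. NEK2, which splits the centrosomes apart, read 8.63, 8.42 and 8.99 in DMSO, 8.70, 7.50 and 8.86 in Ento, 7.83, 7.51 and 8.08 in AZD and 8.03, 5.94 and 7.93 in Ento+AZD in SU-DHL-4. In DG-75 NEK2 gave 8.97, 9.14 and 8.90 in DMSO, 8.99, 9.11 and 8.88 in Ento, 7.83, 8.26 and 8.42 in AZD and 7.78, 8.09 and 8.20 in Ento+AZD. No DMSO array was as low as any AZD or Ento+AZD array in either line, with changes under Ento+AZD of -1.38 ± 0.29 (adjusted p = 0.0300) and -0.98 ± 0.16 (adjusted p = 0.0196). TTK, the kinase that starts checkpoint signalling at kinetochores, fell in both lines by less than 2-fold (-0.96 ± 0.23, adjusted p = 0.0495 and -0.996 ± 0.20, adjusted p = 0.0316).

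The chromosomal passenger complex, which corrects wrong attachments and later moves to the midzone, fell over both lines in all 4 members (median -0.94), with AURKB called. AURKB, its kinase, read 8.48, 8.40 and 8.92 in DMSO, 8.77, 7.49 and 9.002 in Ento, 8.29, 7.03 and 8.17 in AZD and 7.77, 6.04 and 7.93 in Ento+AZD in SU-DHL-4. In DG-75 AURKB read 8.49, 8.72 and 8.32 in DMSO, 8.62, 8.74 and 8.57 in Ento, 7.62, 8.03 and 8.03 in AZD and 7.62, 8.27 and 7.65 in Ento+AZD. The Ento+AZD arrays of SU-DHL-4 were all below DMSO, while in DG-75 the Ento+AZD array of replicate 2 came within 0.05 of the lowest DMSO array. The change was -1.35 ± 0.25 (adjusted p = 0.0172) in SU-DHL-4 and -0.66 ± 0.16 (adjusted p = 0.0525) in DG-75. AURKB was also the only gene of the 43 whose difference in response between the lines (-0.69 ± 0.32) had an unadjusted p under 0.05 in limma, and its adjusted p was 0.745. CDCA8 (borealin), a targeting subunit, was called in SU-DHL-4, where it read 8.46, 8.51 and 9.09 in DMSO, 8.70, 7.67 and 8.86 in Ento, 7.89, 7.67 and 8.27 in AZD and 7.95, 6.76 and 8.29 in Ento+AZD. The DG-75 arrays of CDCA8 read 8.67, 8.45 and 8.69 in DMSO, 8.67, 8.59 and 8.57 in Ento, 7.69, 8.30 and 8.11 in AZD and 7.63, 7.49 and 7.89 in Ento+AZD. Its Ento+AZD and DMSO arrays did not overlap in either line, and the change was -1.02 ± 0.22 (adjusted p = 0.0339) and -0.93 ± 0.17 (adjusted p = 0.0244). The scaffold INCENP (-0.75 ± 0.11) and BIRC5 (survivin, -0.91 ± 0.14) fell over both lines by less than 2-fold, with adjusted p of 0.000190 and 0.000313.

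Of the spindle checkpoint genes, BUB1B was called and BUB3 had the smallest change. BUB1B encodes BUBR1, part of the complex that holds CDC20 in check. Its readings in SU-DHL-4 were 9.54, 9.29 and 9.93 in DMSO, 9.58, 8.44 and 9.71 in Ento, 8.68, 8.39 and 9.17 in AZD and 8.65, 7.50 and 9.19 in Ento+AZD. Those in DG-75 were 10.03, 9.83 and 10.01 in DMSO, 9.97, 10.08 and 9.73 in Ento, 8.92, 9.37 and 9.28 in AZD and 8.47, 9.38 and 9.22 in Ento+AZD. Ento+AZD arrays were below DMSO arrays in both lines, and AZD arrays too, with changes under Ento+AZD of -1.14 ± 0.21 (adjusted p = 0.0152) and -0.93 ± 0.20 (adjusted p = 0.0402). BUB1, a kinetochore kinase, fell in DG-75 (-0.91 ± 0.19, adjusted p = 0.0344) and had -0.88 ± 0.24 in SU-DHL-4 (adjusted p = 0.0792), where 1 Ento+AZD array reached the DMSO range. MAD2L1, which binds CDC20 directly, fell in both lines (-0.97 ± 0.23, adjusted p = 0.0485 and -0.97 ± 0.18, adjusted p = 0.0263). BUB3, the adaptor that carries BUB1 and BUBR1 to kinetochores, did not pass in either line on its own (-0.63 ± 0.16, adjusted p = 0.0616 and -0.40 ± 0.14, adjusted p = 0.173).

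Among the genes that control the APC/C and separase, UBE2C and PTTG1 were called in a line. UBE2C is the ubiquitin-conjugating enzyme that primes substrates of the APC/C, and it was called in both lines. Its SU-DHL-4 arrays read 7.98, 8.07 and 8.51 in DMSO, 8.30, 7.28 and 8.61 in Ento, 7.65, 6.70 and 7.64 in AZD and 7.29, 5.56 and 7.34 in Ento+AZD. Its DG-75 arrays read 8.40, 8.07 and 8.56 in DMSO, 8.43, 8.15 and 8.25 in Ento, 7.05, 7.56 and 7.73 in AZD and 6.84, 7.53 and 7.59 in Ento+AZD. Every Ento+AZD and AZD array was below every DMSO array in both lines, with changes under Ento+AZD of -1.46 ± 0.26 (adjusted p = 0.0136) and -1.03 ± 0.21 (adjusted p = 0.0341). PTTG1 (securin), the inhibitor of separase, read 9.60, 9.43 and 9.74 in DMSO, 9.45, 8.30 and 9.58 in Ento, 9.31, 8.66 and 9.17 in AZD and 8.80, 7.72 and 8.84 in Ento+AZD in SU-DHL-4. For DG-75 the readings of PTTG1 were 9.30, 9.41 and 9.20 in DMSO, 9.31, 9.45 and 9.22 in Ento, 8.27, 8.77 and 8.69 in AZD and 8.37, 8.63 and 8.59 in Ento+AZD. Its Ento+AZD arrays were apart from its DMSO arrays in both lines, and the change was -1.14 ± 0.20 (adjusted p = 0.0131) and -0.77 ± 0.14 (adjusted p = 0.0221). FBXO5 (EMI1), an inhibitor of the APC/C, was called only over both lines (-1.08 ± 0.23, adjusted p = 0.00419). It read 7.39, 7.21 and 7.77 in DMSO, 7.48, 6.03 and 7.45 in Ento, 6.06, 6.77 and 6.97 in AZD and 6.84, 5.52 and 7.11 in Ento+AZD in SU-DHL-4. It read 8.35, 8.01 and 8.49 in DMSO, 8.21, 8.21 and 7.88 in Ento, 6.70, 7.82 and 7.61 in AZD and 6.63, 6.83 and 7.77 in Ento+AZD in DG-75. Replicate 1 was the lowest AZD array in both lines, and in SU-DHL-4 it was below the Ento+AZD array of the same number. CDC20 and ESPL1 (separase) fell over both lines, with changes of -0.95 ± 0.16 and -0.83 ± 0.14 (adjusted p = 0.000627 and 0.000536).

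Of the cohesion genes, CDCA5 was called in both lines and ESCO2 in neither. CDCA5 (sororin) guards cohesin on replicated chromosomes, and with AURKA it was the other gene of the set that fell under AZD alone in DG-75 at an adjusted p under 0.05. CDCA5 read 7.84, 7.88 and 8.31 in DMSO, 8.06, 6.81 and 8.37 in Ento, 7.12, 7.03 and 7.57 in AZD and 7.04, 5.81 and 7.49 in Ento+AZD in SU-DHL-4. In DG-75, CDCA5 gave 8.72, 8.71 and 8.66 in DMSO, 8.70, 8.57 and 8.64 in Ento, 7.35, 7.90 and 7.98 in AZD and 7.54, 7.81 and 7.48 in Ento+AZD. In both lines each AZD and Ento+AZD array was below each DMSO array, and in DG-75 the 3 DMSO arrays spanned 0.07. The change under Ento+AZD was -1.23 ± 0.26 (adjusted p = 0.0288) and -1.08 ± 0.17 (adjusted p = 0.0182), and under AZD in DG-75 -0.95 ± 0.17 (adjusted p = 0.0495). Of the 5 promoters printed above, that of CDCA5 is the one with both an E2F site and a CHR match, and among the other genes NUSAP1 held both too. ESCO2, which acetylates cohesin in S phase, overlapped between groups in both lines, and its changes of -0.83 ± 0.36 and -1.04 ± 0.28 did not pass (adjusted p = 0.325 and 0.0861), though the fit of both lines did (-0.94 ± 0.24, adjusted p = 0.0171).

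The condensin I genes, counted with the SMC2 and SMC4 ATPases that condensin II shares, fell over both lines in all 5 (median -0.86), and none was called there. SMC2 was called in DG-75, where it read 9.08, 8.58 and 9.05 in DMSO, 8.98, 9.02 and 8.79 in Ento, 7.51, 8.26 and 8.10 in AZD and 7.63, 7.95 and 8.12 in Ento+AZD. In SU-DHL-4, SMC2 read 8.35, 8.18 and 8.75 in DMSO, 8.56, 7.29 and 8.67 in Ento, 7.79, 7.92 and 8.20 in AZD and 7.89, 6.95 and 7.92 in Ento+AZD. The change under Ento+AZD was -1.003 ± 0.21 (adjusted p = 0.0371) in DG-75, with no overlap between Ento+AZD and DMSO arrays, and -0.84 ± 0.23 (adjusted p = 0.0878) in SU-DHL-4. Its partner SMC4 did not pass in either line (-0.29 ± 0.13, adjusted p = 0.323 in DG-75 and -0.42 ± 0.15, adjusted p = 0.2 in SU-DHL-4). NCAPD2, NCAPG and NCAPH, the subunits of condensin I alone, had changes over both lines of -0.74 ± 0.12, -0.86 ± 0.16 and -0.91 ± 0.15. In condensin II, 1 of the 3 subunits was called. NCAPG2, called in both lines, read 8.89, 9.08 and 9.72 in DMSO, 9.17, 7.71 and 9.58 in Ento, 8.76, 7.91 and 8.75 in AZD and 8.20, 6.58 and 8.38 in Ento+AZD in SU-DHL-4. For DG-75, NCAPG2 gave 8.96, 9.11 and 8.73 in DMSO, 8.73, 9.004 and 8.75 in Ento, 7.69, 8.38 and 8.12 in AZD and 7.36, 8.24 and 7.76 in Ento+AZD. Its Ento+AZD arrays were below every DMSO array by at least 0.49 in DG-75 and 0.51 in SU-DHL-4, with changes of -1.14 ± 0.17 (adjusted p = 0.0162) and -1.51 ± 0.28 (adjusted p = 0.0176). NCAPD3 (-0.32 ± 0.17 and -0.34 ± 0.13) and NCAPH2 (-0.64 ± 0.26 and -0.53 ± 0.17) did not pass in SU-DHL-4 or DG-75 alone, with adjusted p of 0.460, 0.232, 0.290 and 0.153.

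The spindle assembly genes all fell in each line at an adjusted p under 0.05, the only role in which all members did so in both. ASPM, which focuses the spindle poles, read 8.66, 8.31 and 9.04 in DMSO, 8.55, 6.995 and 8.66 in Ento, 8.09, 7.13 and 7.99 in AZD and 7.63, 6.49 and 7.85 in Ento+AZD in SU-DHL-4. Its values in DG-75 were 8.96, 8.82 and 8.99 in DMSO, 8.80, 8.94 and 8.66 in Ento, 7.89, 8.43 and 8.13 in AZD and 7.62, 8.32 and 7.79 in Ento+AZD. It was below DMSO in all arrays of AZD and Ento+AZD in both lines (-1.35 ± 0.20, adjusted p = 0.00722 and -1.01 ± 0.17, adjusted p = 0.0214 under Ento+AZD). DLGAP5 (HURP) read 9.74, 9.25 and 10.002 in DMSO, 9.74, 8.01 and 9.87 in Ento, 9.19, 8.25 and 9.28 in AZD and 8.68, 6.81 and 9.04 in Ento+AZD in SU-DHL-4. In DG-75, DLGAP5 read 9.82, 9.78 and 9.60 in DMSO, 9.78, 9.82 and 9.37 in Ento, 8.56, 9.24 and 9.15 in AZD and 8.34, 8.73 and 8.73 in Ento+AZD. Its AZD arrays reached the DMSO range in SU-DHL-4 and not in DG-75, and under Ento+AZD its changes were -1.49 ± 0.26 and -1.13 ± 0.19 (adjusted p = 0.0121 and 0.0214).

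HMMR, a microtubule-bound protein of the spindle poles, read 8.39, 7.95 and 8.67 in DMSO, 8.55, 6.90 and 8.76 in Ento, 7.86, 7.04 and 8.17 in AZD and 7.53, 6.19 and 7.89 in Ento+AZD in SU-DHL-4. In DG-75, HMMR read 8.78, 8.39 and 8.88 in DMSO, 8.74, 8.97 and 8.62 in Ento, 7.48, 8.06 and 8.22 in AZD and 7.34, 7.74 and 7.73 in Ento+AZD. Each Ento+AZD array was below each DMSO array in both lines, with changes of -1.14 ± 0.22 (adjusted p = 0.0189) and -1.08 ± 0.20 (adjusted p = 0.0241). TPX2, which activates Aurora A on the spindle, read 9.54, 9.52 and 9.94 in DMSO, 9.65, 8.64 and 9.82 in Ento, 8.89, 8.74 and 9.25 in AZD and 8.83, 7.51 and 9.10 in Ento+AZD in SU-DHL-4. Its arrays in DG-75 read 10.21, 9.92 and 10.04 in DMSO, 10.01, 10.05 and 9.95 in Ento, 8.83, 9.42 and 9.45 in AZD and 8.92, 9.17 and 9.18 in Ento+AZD. Its Ento+AZD arrays did not overlap its DMSO arrays in either line, and the change was -1.19 ± 0.24 (adjusted p = 0.0217) and -0.96 ± 0.17 (adjusted p = 0.0215). NUSAP1, a microtubule bundler, fell by less than 2-fold in both lines (-0.95 ± 0.19, adjusted p = 0.0206 and -0.71 ± 0.14, adjusted p = 0.0268).

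All 4 cytokinesis genes were called over both lines (median -1.14). PRC1, with the largest change of the 43 in SU-DHL-4, read 9.22, 9.01 and 9.69 in DMSO, 9.31, 7.94 and 9.41 in Ento, 8.25, 7.76 and 8.64 in AZD and 8.11, 6.40 and 8.34 in Ento+AZD. In DG-75, PRC1 read 9.56, 9.51 and 9.41 in DMSO, 9.33, 9.43 and 9.19 in Ento, 7.92, 8.92 and 8.83 in AZD and 7.84, 8.39 and 8.50 in Ento+AZD. Each AZD array was below each DMSO array in both lines, and so was each Ento+AZD array, the gap under Ento+AZD being 0.67 for SU-DHL-4 and 0.92 for DG-75. The change was -1.69 ± 0.25 (adjusted p = 0.00635) and -1.25 ± 0.21 (adjusted p = 0.0214) under Ento+AZD, and -1.09 ± 0.25 (adjusted p = 0.109) and -0.94 ± 0.21 (adjusted p = 0.0859) under AZD. RACGAP1, a part of centralspindlin, read 9.95, 9.80 and 10.18 in DMSO, 9.93, 8.82 and 10.08 in Ento, 9.42, 8.59 and 9.30 in AZD and 8.86, 7.91 and 9.12 in Ento+AZD in SU-DHL-4. In DG-75, RACGAP1 read 9.64, 9.82 and 9.62 in DMSO, 9.67, 9.60 and 9.80 in Ento, 8.74, 8.96 and 9.23 in AZD and 8.45, 9.06 and 8.73 in Ento+AZD. It was the gene called in SU-DHL-4 in all 12 fits that left out 1 array (-1.35 ± 0.19, adjusted p = 0.00567), and in DG-75 it fell by less than 2-fold (-0.95 ± 0.16, adjusted p = 0.0214).

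ANLN (anillin), the scaffold of the contractile ring, read 10.17, 9.72 and 10.44 in DMSO, 9.96, 8.72 and 10.10 in Ento, 9.48, 8.85 and 9.52 in AZD and 9.16, 7.94 and 9.31 in Ento+AZD in SU-DHL-4. In DG-75, ANLN read 9.76, 9.90 and 9.76 in DMSO, 9.68, 9.96 and 9.70 in Ento, 8.54, 9.39 and 9.35 in AZD and 8.57, 9.13 and 9.05 in Ento+AZD. The Ento+AZD arrays were all below DMSO, with changes of -1.30 ± 0.18 (adjusted p = 0.00567) and -0.89 ± 0.17 (adjusted p = 0.0267). ECT2, which activates RhoA at the furrow, was the most scattered of the 4 in the DMSO arrays of DG-75, though not in those of SU-DHL-4. Its SU-DHL-4 values were 8.004, 7.61 and 8.17 in DMSO, 8.08, 6.42 and 8.19 in Ento, 6.60, 7.10 and 7.71 in AZD and 7.38, 6.15 and 7.77 in Ento+AZD. Its DG-75 values were 8.20, 7.39 and 8.52 in DMSO, 8.06, 7.96 and 7.57 in Ento, 6.07, 7.42 and 7.04 in AZD and 6.12, 6.21 and 7.50 in Ento+AZD. The DMSO arrays of DG-75 alone spanned 1.13, the groups overlapped in both lines, and the changes of -0.83 ± 0.31 and -1.43 ± 0.39 did not pass in either (adjusted p = 0.245 and 0.0884), while the fit of both lines called it (-1.13 ± 0.27, adjusted p = 0.0113).

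Of the 6 chromatin proteins and regulators, 5 were called in SU-DHL-4, and CDKN3 was called in DG-75 too. FOXM1, a transcription factor of G2 and mitotic genes, read 9.10, 9.05 and 9.36 in DMSO, 9.24, 8.19 and 9.48 in Ento, 8.47, 7.58 and 8.51 in AZD and 8.13, 6.41 and 8.27 in Ento+AZD in SU-DHL-4. In DG-75, FOXM1 read 9.16, 8.99 and 8.98 in DMSO, 9.07, 8.94 and 9.11 in Ento, 7.85, 8.40 and 8.37 in AZD and 8.06, 8.29 and 7.93 in Ento+AZD. No Ento+AZD or AZD array overlapped DMSO in either line. The change was -1.57 ± 0.25 (adjusted p = 0.00963) and -0.95 ± 0.17 (adjusted p = 0.0221). CDKN3, called in both lines, read 9.36, 9.14 and 9.48 in DMSO, 9.19, 7.76 and 9.30 in Ento, 8.58, 8.09 and 8.75 in AZD and 8.39, 7.08 and 8.57 in Ento+AZD in SU-DHL-4. In DG-75, CDKN3 read 9.04, 8.89 and 8.93 in DMSO, 8.75, 8.97 and 8.39 in Ento, 7.12, 8.12 and 7.95 in AZD and 7.21, 7.47 and 7.92 in Ento+AZD. Its AZD and Ento+AZD arrays were all below DMSO in both lines (-1.31 ± 0.23, adjusted p = 0.0142 and -1.42 ± 0.24, adjusted p = 0.0214 under Ento+AZD). TOP2A, which untangles DNA before chromosomes part, read 10.16, 9.91 and 10.41 in DMSO, 10.23, 8.81 and 10.37 in Ento, 9.86, 8.78 and 9.62 in AZD and 9.25, 7.51 and 9.57 in Ento+AZD in SU-DHL-4. In DG-75, TOP2A read 9.96, 9.82 and 10.10 in DMSO, 10.03, 9.97 and 9.94 in Ento, 9.03, 9.57 and 9.51 in AZD and 8.82, 9.51 and 9.30 in Ento+AZD. It was called in SU-DHL-4 (-1.38 ± 0.26, adjusted p = 0.0180) and had -0.75 ± 0.18 in DG-75 (adjusted p = 0.0512), without overlap of Ento+AZD and DMSO arrays.

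MKI67, the gene of the proliferation marker Ki-67, read 10.13, 10.20 and 10.71 in DMSO, 10.41, 9.25 and 10.53 in Ento, 9.98, 9.14 and 10.04 in AZD and 9.37, 7.92 and 9.56 in Ento+AZD in SU-DHL-4. In DG-75, MKI67 read 10.35, 10.43 and 10.35 in DMSO, 10.21, 10.20 and 10.36 in Ento, 9.49, 9.98 and 9.92 in AZD and 9.33, 10.04 and 9.41 in Ento+AZD. The arrays of Ento+AZD were below those of DMSO in both lines, by more in SU-DHL-4 (-1.40 ± 0.23, adjusted p = 0.0116) than in DG-75 (-0.78 ± 0.17, adjusted p = 0.0403), a difference that did not pass when tested (-0.62 ± 0.31, adjusted p = 0.787). CDCA3, linked to the turnover of the mitotic inhibitor WEE1, read 7.70, 7.64 and 8.18 in DMSO, 7.76, 5.92 and 8.07 in Ento, 7.38, 6.45 and 7.36 in AZD and 6.87, 5.49 and 6.94 in Ento+AZD in SU-DHL-4. In DG-75, CDCA3 read 7.38, 7.16 and 7.03 in DMSO, 7.43, 7.41 and 6.98 in Ento, 6.0, 6.89 and 6.62 in AZD and 6.21, 6.56 and 6.43 in Ento+AZD. It was called in SU-DHL-4 (-1.41 ± 0.28, adjusted p = 0.0209), and in DG-75 had -0.79 ± 0.21 (adjusted p = 0.0799). CDCA2, which brings protein phosphatase 1 to chromatin, fell in DG-75 (-0.78 ± 0.17, adjusted p = 0.0416) and had -0.87 ± 0.21 in SU-DHL-4 (adjusted p = 0.0537).

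**Figure D4:**
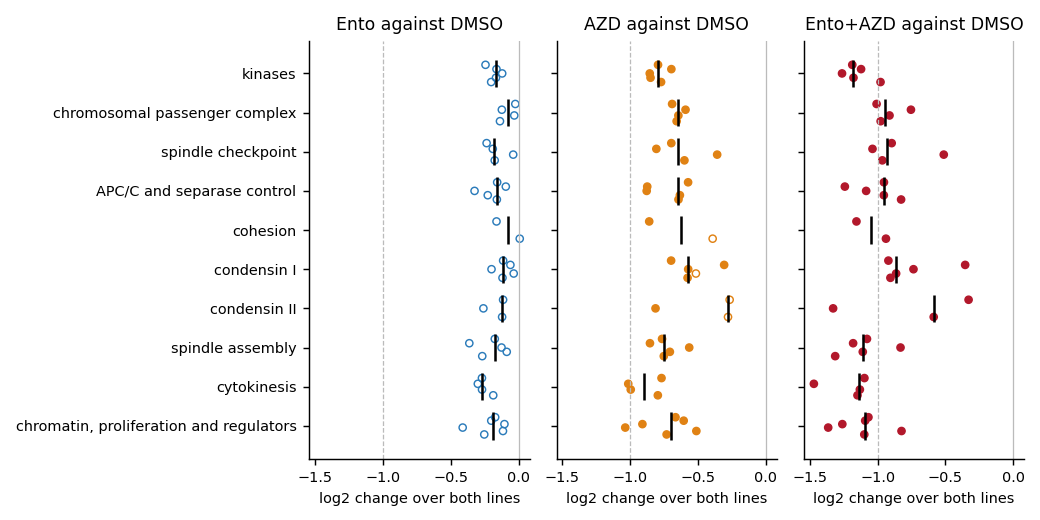
Log2 change against DMSO over both lines (horizontal axis) of each of the 43 genes, by role (vertical axis) and treatment (panels). Filled points passed an adjusted p under 0.05, open points did not, black bars are role medians, and the dashed line marks a 2-fold decrease. Under Ento+AZD all 43 points are filled, with role medians from -1.18 (kinases) to -0.59 (condensin II), and under Ento none is.

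No difference between the lines passed the test for any of the 43 genes. None was called for Ento, AZD or Ento+AZD, where 0.00782%, 0% and 0.0352% of all rows were called in either direction, and at an unadjusted p under 0.05 limma gave 0, 0 and 1 gene (4.43%, 6.16% and 6.51% of all rows). A test that misses the threshold does not show that the lines responded alike, and for Ento+AZD the differences between SU-DHL-4 and DG-75 ran from -0.69 to 0.60. Of the genes called under Ento+AZD, 9 were called in both lines (40.9% of the SU-DHL-4 calls and 81.8% of the DG-75 calls), 13 in SU-DHL-4 only and 2, PLK4 and SMC2, in DG-75 only. These shares rest on counts that went from 22 to 2 without the DMSO array of replicate 2 in SU-DHL-4 and to 0 without the replicate term, and from 11 to 0 without the DMSO array of replicate 1 in DG-75. Across the 43 genes the changes in the 2 lines had a Pearson correlation of 0.559 (Spearman 0.416) with the combination, 0.596 (0.620) with AZD and 0.300 (0.238) with Ento, as a description over genes that share arrays within each line. In DMSO none of the 43 genes was called between SU-DHL-4 and DG-75, where 7.2% of all rows were, and 2 had an unadjusted p under 0.05 in limma (27.6% of all rows), NCAPH (-0.80 ± 0.33, adjusted p = 0.106) and BUB3 (-0.40 ± 0.18, adjusted p = 0.144), both lower in SU-DHL-4.

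**Figure D5:**
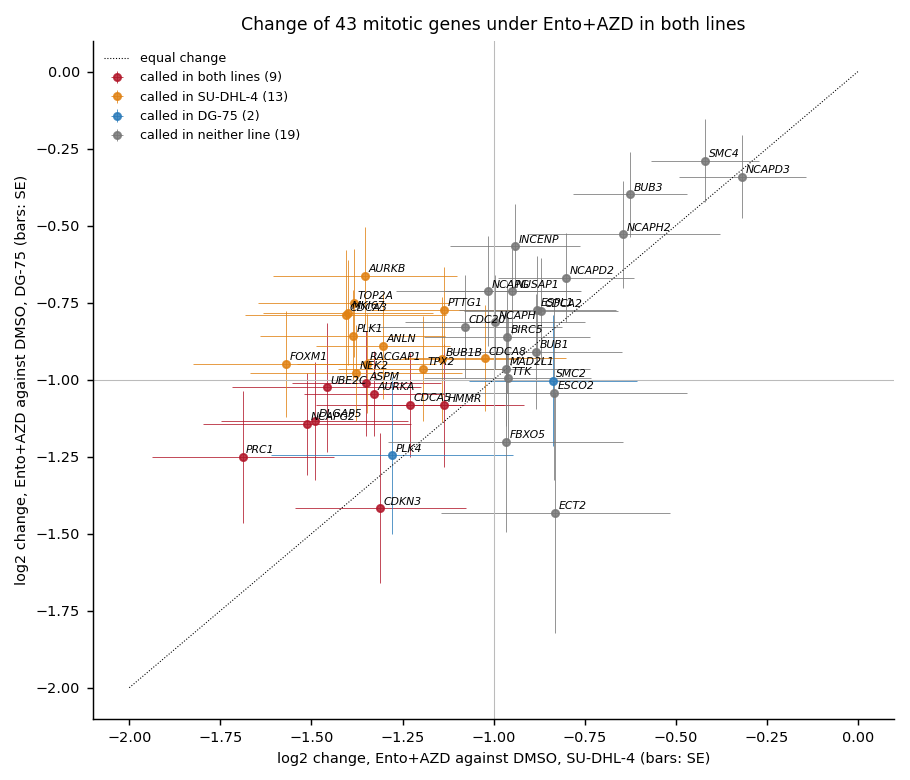
Log2 change under Ento+AZD against DMSO in SU-DHL-4 (horizontal axis) and DG-75 (vertical axis) for each of the 43 genes, with standard errors as bars, thin grey lines at a 2-fold decrease and a dotted line of equal change. Colours mark the genes called in both lines (9), in SU-DHL-4 only (13), in DG-75 only (2) and in neither (19). Every gene lies below 0 in both lines, from -1.69 to -0.32 in SU-DHL-4 and from -1.43 to -0.29 in DG-75.

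In DG-75 the changes under Ento alone were small, with a median of -0.02 and same-numbered medians of -0.04, 0.07 and -0.06. None of the 43 genes was called lower there, nor was any other row (0%), and limma gave 0 genes at an unadjusted p under 0.05 (1.61% of all rows). AZD gave a median of -0.71 (-0.49 without the 4 arrays of replicate 1), with 39 genes whose 3 AZD arrays were all below the 3 DMSO arrays (14.6% of all rows), 40 genes at an unadjusted p under 0.05 (11.3%), 2 at an adjusted p under 0.05 (AURKA and CDCA5, where 0.254% of all rows fell) and none called (0.164%). Without the 4 arrays of replicate 1, 22 genes had an unadjusted p under 0.05 (4.22% of all rows), and without any 1 of the 3 numbers none had an adjusted p under 0.05 in limma. AZD against Ento lowered 4 genes at an adjusted p under 0.05 (AURKA, NEK2, PTTG1 and CDCA5, where 0.52% of all rows fell), but none without the 4 arrays of any 1 replicate number, and called none (0.328%). Without Ento replicate 3, 1 gene was called for AZD against DMSO and 3 for AZD against Ento. Against Ento, the combination called 8 of the 43 genes lower (0.598% of all rows) and lowered 28 at an adjusted p under 0.05 (1.44%), which became 0 without the 4 arrays of any 1 replicate number, and in 42 genes its arrays were all below the Ento arrays (13.7%). These 8 were PLK4, CDCA5, SMC2, NCAPG2, HMMR, DLGAP5, PRC1 and CDKN3, with HMMR (-1.18 ± 0.20, adjusted p = 0.0235), PLK4 (-1.23 ± 0.26, adjusted p = 0.0406) and CDKN3 (-1.17 ± 0.24, adjusted p = 0.0405) changing most among them. When 1 array was dropped, the count of 8 went to 0 for any Ento or Ento+AZD array of replicates 1 and 2. For replicate 3 it went to 3 with the Ento+AZD array dropped, to 4 with the DMSO or AZD array dropped, and to 19 with the Ento array dropped. Against AZD, the combination called none (0% of all rows), with a median of -0.20 and 0 genes at an unadjusted p under 0.05 in limma (2.02%). Without the arrays of replicates 1, 2 and 3 there were 3, 1 and 0 such genes (1.3%, 3.15% and 1.85% of all rows).

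In SU-DHL-4 no gene of the 43 passed under Ento or AZD alone. Under Ento the median was -0.29, with same-numbered medians of 0.14, -0.94 and -0.08. The median was 0.04 without the 4 arrays of replicate 2 and -0.04 without its DMSO array alone. No gene was called, where 0.0117% of all rows were called lower, and 5 had an unadjusted p under 0.05 in limma (6.29%). Without the arrays of replicates 1, 2 and 3 there were 14, 0 and 5 such genes (9.4%, 3.58% and 3.14% of all rows). Without replicate 1 the median was -0.54. AZD gave a median of -0.75, with same-numbered medians of -0.53, -0.87 and -0.71, and 33 genes whose AZD arrays were all below the DMSO arrays (12.9% of all rows). The median moved to -0.41 when the DMSO array of replicate 2 was dropped, and to -0.57 without all 4 arrays of that number. AZD called none, where 0.18% of all rows were called lower, and the lowest adjusted p was 0.103. In limma 37 genes had an unadjusted p under 0.05 (9.6%). Without the arrays of replicates 1, 2 and 3 there were 34, 33 and 25 (6.65%, 10.7% and 4.78% of all rows). The combination against Ento had a median of -0.79 with same-numbered medians of -0.80, -0.78 and -0.75. In none of the 43 genes were all 3 Ento+AZD arrays below all 3 Ento arrays, where 7.15% of all rows were so. Without the arrays of replicate 2 this held for all 43 (27.5% of all rows), and without those of replicates 1 and 3 for 0 and 1 (15.6% and 16.6%). The combination called none against Ento (0.0704% of all rows), with a lowest adjusted p of 0.0749, and 6 were called when the DMSO array of replicate 2 was dropped. In limma 37 genes had an unadjusted p under 0.05 (6.65%). Without the arrays of replicates 1, 2 and 3 there were 34, 39 and 29 (5.31%, 6.82% and 3.24% of all rows). Against AZD the median was -0.47 and the same-numbered medians were -0.19, -0.96 and -0.19. No gene had its Ento+AZD arrays all below its AZD arrays (5.03% of all rows). None was called (0.00391%), and 16 had an unadjusted p under 0.05 in limma (3.63%). Without the arrays of replicate 2 the median was -0.22, the count 4 (3.74% of all rows) and the arrays of 23 genes did not overlap (17.4%). Without those of replicates 1 and 3 the arrays of 1 and 0 genes did not overlap (21.3% and 13.6% of all rows). AZD against Ento called none either (0.36%), with 9 genes at an unadjusted p under 0.05 in limma (6.1%). Without the arrays of replicates 1, 2 and 3 there were 2, 37 and 0 (3.4%, 11% and 3.25% of all rows). The median in these 3 fits was -0.23, -0.62 and -0.29, and the same-numbered medians were -0.61, 0.13 and -0.57. A departure of the combination from additivity, the summed log2 changes of both agents, was called for none of the 43 genes in either line (0% of all rows in each), with median departures of -0.15 for SU-DHL-4 and -0.13 for DG-75 and 0 genes at an unadjusted p under 0.05 in limma (4.99% and 2.63% of all rows).

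Over the 12 arrays of a line, the correlation of a gene with the mean of the other 42 was between 0.615 (NCAPD3) and 0.991 (PLK1) in SU-DHL-4 and between 0.815 (ESCO2) and 0.992 (TPX2) in DG-75. NCAPD3, NCAPH2 and ESCO2 had the 3 lowest values in each line. These are descriptions without a test, since the arrays share treatments and, in SU-DHL-4, the low arrays of replicate 2.

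Lists of other genes of mitosis held both genes that fell and genes that did not pass. Of 19 genes of the entry and exit of mitosis, 9 fell over both lines under Ento+AZD and 5 were called, with a median of -0.36, where 7.03% of all rows fell and 0.813% were called lower in that fit. They were CDC25C, the phosphatase that activates cyclin-dependent kinase 1 (-1.49 ± 0.20, adjusted p = 8.17e-05), CDK1 itself (-1.43 ± 0.17, adjusted p = 3.40e-05), its partner CCNB2 (-1.14 ± 0.17, adjusted p = 0.000219), MASTL, the Greatwall kinase (-1.09 ± 0.19, adjusted p = 0.000645), and WEE1, the kinase that holds CDK1 back (-1.03 ± 0.12, adjusted p = 3.46e-05). Of 13 genes of cohesin and its loading, 6 fell and 1 was called, the centromere guardian SGO2 (-1.41 ± 0.25, adjusted p = 0.000767), with a median of -0.36. The 16 subunits and enzymes of the APC/C had 2 that fell, a share near that of all rows, and none called (median -0.19), UBE2S, which extends ubiquitin chains, with the smallest p (-0.79 ± 0.14, adjusted p = 0.000899). The 8 other checkpoint genes also had 2 that fell and none called (median -0.41), with KNTC1 first (-0.87 ± 0.14, adjusted p = 0.000311). Among 10 genes of the DREAM and MuvB complexes 4 fell and 1 was called, LIN9, a MuvB subunit (-1.04 ± 0.20, adjusted p = 0.00225), with a median of -0.18. None of these 66 genes was higher at an adjusted p under 0.05 in that fit. Within SU-DHL-4 the called genes were SGO2, CDK1, CCNB2, CDC25C and WEE1, and within DG-75 CDK1, CDC25C, MASTL and LIN9, where 1.09% and 0.708% of all rows were called lower.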

How the data were processed

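RNA from SU-DHL-4 and DG-75 cultures (3 arrays in each of 8 groups) was labelled and hybridised to Clariom D Human arrays. The deposited values are log2 expression values that the authors obtained by robust multi-array averaging (RMA), 1 per transcript cluster, and the versions of their tools and the genome build are not given in the sources used here. RMA normalises probe intensities between arrays and compresses differences of dim probes, and the medians of the deposited arrays still differed. The number of arrays, not read depth, limits the precision.

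All 25575 rows were fitted with limma 3.58.1 in R 4.3.3, per line with treatment and replicate number as terms, and over both lines with treatment, line and replicate number within line. The study's methods name a batch term without saying what it is, and the replicate number stands in for it here. Adjusted p-values are Benjamini-Hochberg values over all rows. Calls required a change over 2-fold (1 on the log2 scale) together with an adjusted p under 0.05. Differences between lines and DMSO levels were contrasts of fits over both lines, that of the DMSO levels without the replicate term. Departures from additivity were contrasts of the fit of each line. The labels call the samples biological triplicates and do not say whether a replicate number marks a shared day or culture.

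Of several rows for a symbol, the one with the highest mean was to be used, and all 43 genes had 1 row. Every gene of the set may be named, values in all arrays are given for genes called in any comparison, and genes of the other mitosis lists are named when called or among the 3 with the smallest p. The genes, lists and motifs were chosen with earlier results of these data known, so no test over a list was run. The scripts were tested on simulated data. Alternatives left out the replicate term, fitted all 24 arrays together, left out rows under the median level, re-normalised by quantiles or array medians, let the prior variance follow the level, and left out single arrays. Leaving out all arrays of 1 replicate number of a line was added after the data were seen. Promoter windows and motif matches came from RefSeq sequences of GRCh38.p14, matched by symbol.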

Additional observations from a re-analysis of the deposited data

How the results depend on the processing

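The counts below are of the 43 genes alone. Shares of all rows called at the same settings are not given with them, so they do not show whether other rows moved too. Samples with the same replicate number were not shown to be pairs in 10 of the 12 comparisons within a line, where not every correlation of their deviations was over 0.1. Between Ento+AZD and DMSO it was -0.001, 0.17 and 0.15 in SU-DHL-4 and 0.04, 0.34 and 0.30 in DG-75. In the other 2, both in SU-DHL-4, it was 0.14, 0.12 and 0.21 for AZD against DMSO and 0.15, 0.39 and 0.25 for Ento+AZD against Ento, every sample correlated best with its own number, and no gene was called with or without the block. Without the replicate block the count for Ento+AZD against DMSO in SU-DHL-4 was 0 in place of 22.

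With 1 fit of all 24 arrays, 7 genes were called for Ento+AZD against Ento in SU-DHL-4 and 1 for AZD in DG-75, and with rows under the median left out 5 and 1, where the main fits called 0. With a robust prior variance by level these were 9 and 1, and 1 for AZD in SU-DHL-4. Quantile normalization and array medians subtracted gave 5 and 4 for Ento+AZD in DG-75 (main 11), 3 and 1 against Ento there (main 8), 0 and 0 for AZD over both lines (main 2), and 14 and 15 for Ento+AZD over both lines (main 23).

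With 1 array left out, or all 4 of a replicate number, the count for Ento+AZD ran from 0 to 29 in SU-DHL-4, from 0 to 14 in DG-75 and from 8 to 30 over both lines. Against Ento it ran from 0 to 19 in DG-75 and from 0 to 6 in SU-DHL-4. For AZD it was 0 to 1 in DG-75 and 0 to 5 over both lines, and 0 to 3 for AZD against Ento in DG-75. The median change under AZD in SU-DHL-4 ran from -0.93 to -0.41, and that under Ento in DG-75 from -0.13 to 0.090, the values above 0 being 0.090 without DMSO replicate 1, 0.085 without Ento replicate 3 and 0.028 without all arrays of replicate 3. Over the 26 genes called in any of the 5 comparisons that had calls, and in those comparisons alone, under the settings that kept all arrays 647 results kept their direction and side of the threshold, 73 lost the call and 8 gained it. The median change under Ento+AZD was below 0 in every fit of either line. The causes of these shifts were not tested.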
